A study of Mus musculus with 2 samples.

Results

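Cd163, Lyve1, Folr2, Marco, Msr1, Olr1, Scarb1 and Cd5l were followed as the scavenger and resident-macrophage receptor genes of aortic leukocytes. They were found by gene symbol in the gene lists of both libraries, once each, and make up 8 of the 32285 genes listed. Expression was measured by droplet single-cell RNA sequencing with 3′ libraries and unique molecular identifiers (UMIs) in mouse aortic cells sorted as CD45+ leukocytes. One library was labelled treated with ZnDPA@siIRF5, a carrier with a small interfering RNA against Irf5, and the other was labelled control; the series title places the work in atherosclerosis. The labels give neither the number of animals nor their strain, genotype, diet, sex or age, nor what the control group received, and each group is 1 library, so no value has a replicate check and all intervals cover counting error only.

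The targeted gene did not separate the libraries in the direction of their labels. Irf5, which encodes interferon regulatory factor 5, was at 126 CPM (UMIs of the gene per 1000000 UMIs of the same cells) in macrophage-like cells labelled treated, against 112 CPM in those labelled control. The log2 ratio of 0.18 had a 95% interval of 0.07 to 0.28. Every direction below therefore runs between libraries as they are labelled. Apoe stood near 0 in macrophage-like cells of both, at 5.59 CPM labelled treated and 6.36 CPM labelled control.

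Scavenger receptors are surface proteins that bind modified lipoproteins, damaged cells, bacteria and free haem proteins and carry them into the cell. CD163 takes up haemoglobin bound to haptoglobin, LYVE1 binds hyaluronan, and FOLR2 is the beta form of the folate receptor; in many mouse tissues the 3 genes mark macrophages that live beside vessels. MSR1 and MARCO are class A scavenger receptors, the first known for uptake of modified low-density lipoprotein and the second for binding bacteria and particles. OLR1, also called LOX-1, is the lectin-like receptor for oxidised low-density lipoprotein, and SCARB1 exchanges cholesterol with high-density lipoprotein. CD5L is a secreted protein of tissue macrophages built from the same kind of domain as CD163, and so the only member that is not a membrane receptor.

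After the filters, 11888 cells of the library labelled treated and 11523 of the library labelled control were kept, at medians of 4555.5 and 4630 UMIs per cell. Ptprc, which encodes CD45, had a UMI in 87.1% of kept cells labelled treated and in 86.9% of those labelled control, but in 36.4% and 38.5% of the fibroblast-like cells of the same libraries. Macrophage-like cells numbered 2153 in the library labelled treated, 18.1% of its cells, against 1567 or 13.6% in the library labelled control. Monocyte-like cells made up 15.9% of cells labelled treated and 6.06% of those labelled control, and immunoglobulin genes held 5.40% and 15.3% of all UMIs in those libraries. A cluster of 20 and 14 cells in the libraries labelled treated and control was led by Saa3, Prg4, Alox15 and Serpinb2 and is called serous cavity macrophage-like. The 8 genes were left out of the genes used for clustering, so no cell was placed by them.

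The genes lie on 6 chromosomes of the mouse genome (GRCm38, GENCODE vM21). Cd163 covers chr6:124304656-124330527 on the plus strand and Olr1 chr6:129485244-129507165 on the minus strand. Folr2 covers chr7:101839988-101857194 and Lyve1 chr7:110850607-110863239, both on the minus strand. Marco lies at chr1:120474538-120505024, Msr1 at chr8:39581685-39642673 and Scarb1 at chr5:125277087-125341094, all 3 on the minus strand, and Cd5l at chr3:87357881-87371073 on the plus strand. Folr2 overlaps Gm10602 and Gm45319 on the opposite strand and Scarb1 overlaps Gm42633 on its own strand, so that reads of Scarb1 could be shared with that gene.

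Of the 8 genes, 5 had an entry in the RefSeq promoter table (GRCm38.p6). The 250 bases before the start are printed for a resident gene whose level differed between the libraries, Cd163, and one whose level did not part, Folr2, and for the pair whose UMIs met in single cells, Marco and Cd5l. Capitals mark 3 motifs searched on both strands. They are GAGGAA, the core bound by PU.1, then TGCTGA, one arm of the site bound by MAF factors, and last TGACTCA, the AP-1 site, which a full MAF site can contain.
Cd163, chr6:124304401-124304650, plus strand: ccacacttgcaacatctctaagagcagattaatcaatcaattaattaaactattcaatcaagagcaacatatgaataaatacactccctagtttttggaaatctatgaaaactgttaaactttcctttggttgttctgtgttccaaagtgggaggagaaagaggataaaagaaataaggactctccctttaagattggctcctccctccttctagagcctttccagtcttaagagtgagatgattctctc
Folr2, upstream start, chr7:101857191-101857440, minus strand: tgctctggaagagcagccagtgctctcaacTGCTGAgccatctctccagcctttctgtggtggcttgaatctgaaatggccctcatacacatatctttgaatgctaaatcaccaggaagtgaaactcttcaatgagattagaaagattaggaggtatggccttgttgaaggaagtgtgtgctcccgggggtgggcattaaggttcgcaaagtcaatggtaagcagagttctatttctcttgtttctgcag
Folr2, downstream start, chr7:101845332-101845581, minus strand: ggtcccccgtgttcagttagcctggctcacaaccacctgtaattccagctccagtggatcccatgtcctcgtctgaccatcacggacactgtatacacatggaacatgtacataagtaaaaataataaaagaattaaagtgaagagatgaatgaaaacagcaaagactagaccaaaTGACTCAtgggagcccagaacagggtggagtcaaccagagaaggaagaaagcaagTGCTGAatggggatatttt
Marco, chr1:120505025-120505274, minus strand: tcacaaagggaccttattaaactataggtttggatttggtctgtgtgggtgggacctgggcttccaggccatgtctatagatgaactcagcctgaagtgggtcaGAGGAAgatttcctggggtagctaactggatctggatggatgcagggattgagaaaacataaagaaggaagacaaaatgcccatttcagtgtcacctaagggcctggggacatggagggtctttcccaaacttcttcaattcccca
Cd5l, chr3:87357631-87357880, plus strand: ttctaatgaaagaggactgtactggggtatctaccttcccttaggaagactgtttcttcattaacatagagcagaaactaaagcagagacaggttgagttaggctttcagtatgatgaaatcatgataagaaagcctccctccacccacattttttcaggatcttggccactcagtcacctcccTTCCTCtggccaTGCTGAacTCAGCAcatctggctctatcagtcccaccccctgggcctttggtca
The Cd163 window held none of the 3 motifs and the Marco window 1 PU.1 core. The Cd5l window held 1 PU.1 core and 2 MAF arms. Both Folr2 windows held 1 MAF arm, and the downstream one also 1 AP-1 site. Over all 32851 promoters of the same length the shares that held a motif were 23.3% for the PU.1 core, 16.1% for the MAF arm and 4.46% for the AP-1 site, so such matches are common and say nothing by themselves about binding.

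The 8 genes fell into 4 patterns over the cell classes. Cd163, Lyve1 and Folr2 were macrophage genes: 95.7%, 96.6% and 95.9% of their UMIs, over both libraries, lay in macrophage-like cells. Msr1 was shared by monocyte-like cells, with 51.7% of its UMIs, and macrophage-like cells, with 41.7%. Olr1 and Scarb1 reached beyond macrophages: monocyte-like cells held 45.9% of Olr1 and 38.9% of Scarb1 UMIs, neutrophil-like cells 25.3% of Olr1, and cDC1-like dendritic cells 10.1% of Scarb1. Marco and Cd5l were concentrated in the 34 serous cavity macrophage-like cells, with 53.1% and 54.5% of their UMIs, although those cells hold a very small part of the libraries.

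**Figure D1:**
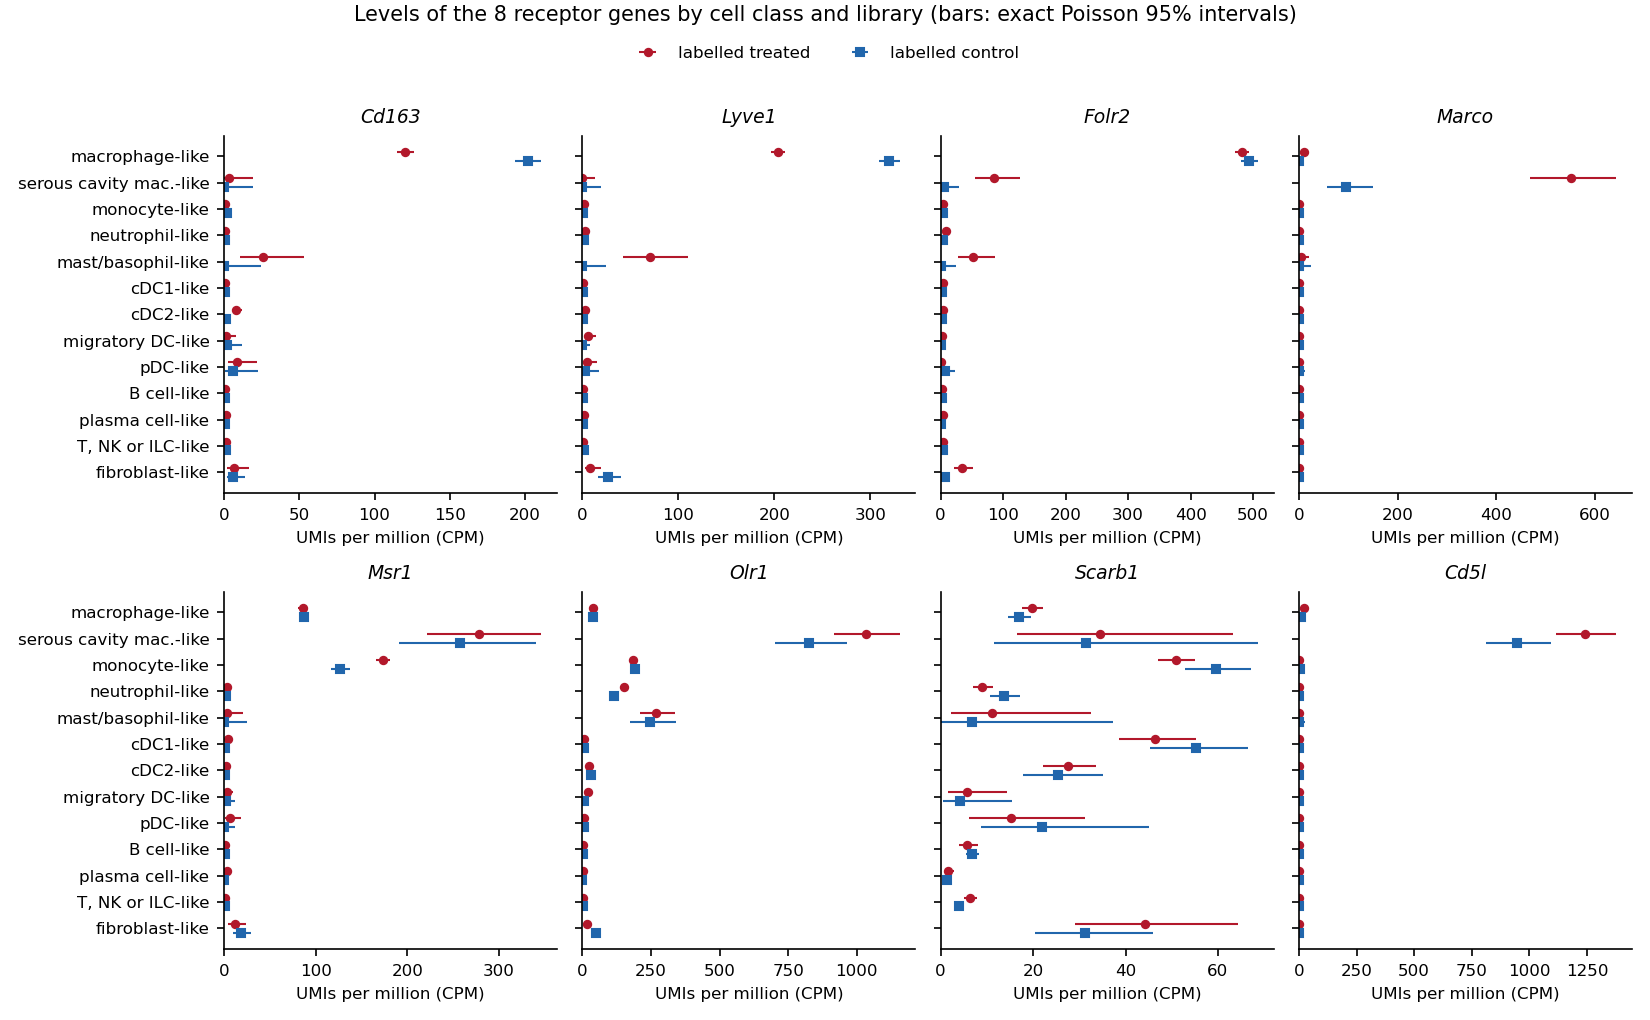
Level of each gene in 13 cell classes (rows) as UMIs per 1000000 UMIs of the class (CPM), with exact Poisson 95% intervals; red circles are the library labelled treated and blue squares the library labelled control. Cd163 and Lyve1 stand lower in the macrophage-like cells labelled treated (121 against 202 CPM and 204 against 320 CPM), while Folr2 does not (482 against 494 CPM).

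Of the macrophage genes, Cd163 and Lyve1 were lower in the library labelled treated and Folr2 was not. Among the 6 members that reached 50 UMIs and 20 CPM in either library, Cd163 and Lyve1 were over 1.5-fold lower there, against 1.53% of all 5893 genes so measured. At 2-fold no member was lower or higher, against 0.356% and 0.238% of all genes. Cd5l was over 1.5-fold higher, against 1.36% of all genes, and that ratio rests largely on 1 cell described further on. The median log2 ratio over the 12958 genes with at least 20 UMIs in macrophage-like cells was 0.03.

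Cd163, the haemoglobin-haptoglobin receptor, had 1768 UMIs in macrophage-like cells labelled treated, 121 CPM (95% interval 115 to 126), against 2159 UMIs, 202 CPM (194 to 211), in those labelled control. The log2 ratio was -0.75 (-0.84 to -0.65). With each cell thinned to 2000 UMIs, Cd163 was seen in 17.1% (15.5 to 18.9) of the macrophage-like cells labelled treated and in 24.7% (22.5 to 27.0) of those labelled control; unthinned shares were 22.9% and 33.5%. Fewer cells thus carried a Cd163 UMI in the library labelled treated. Among the carriers the median was 3 UMIs in both libraries, but 22 of 493 carriers labelled treated held 10 UMIs or more, against 43 of 525 labelled control, and in resident-like sub-cluster 1 the median was 3 UMIs labelled treated and 4 labelled control. T, NK or ILC-like cells, which should lack the gene, gave thinned shares of 0.0751% and 0.0761% in the libraries labelled treated and control, at median depths of 4327 and 3762 UMIs against 6092 and 6129 in macrophage-like cells.

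Lyve1, the hyaluronan receptor, showed the same direction. Its level was 204 CPM (196 to 211, from 2986 UMIs) in macrophage-like cells labelled treated and 320 CPM (309 to 331, from 3416 UMIs) in those labelled control, a log2 ratio of -0.65 (-0.72 to -0.58). Lyve1 was seen in 23.7% (21.8 to 25.6) of thinned cells labelled treated against 33.0% (30.6 to 35.5) labelled control, and in 0.0375% and 0.304% of T, NK or ILC-like cells of the same libraries. Lyve1 also marks lymphatic endothelium, so the markers of that cell type were summed: over 6 genes they came to 62.1 CPM in macrophage-like cells labelled treated and 82.5 CPM in those labelled control, with the lymphatic gene Mmrn1 at 0 in both. In resident-like cells, where most Lyve1 UMIs lay, the same sum was 49.0 CPM labelled treated and 46.7 CPM labelled control.

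Folr2, the folate receptor gene of tissue macrophages, stayed level across the class. It had 7076 UMIs, 482 CPM (471 to 494), in macrophage-like cells labelled treated, against 5279 UMIs, 494 CPM (481 to 508), in those labelled control. The interval of the log2 ratio, -0.03, ran from -0.09 to 0.02. A UMI was seen in 42.8% of thinned macrophage-like cells labelled treated and in 44.4% of those labelled control, against 0.713% and 0.786% of T, NK or ILC-like cells. Of the 3 genes of resident macrophages, those of the haemoglobin and hyaluronan receptors were thus lower in the library labelled treated, and the gene of the folate receptor was not.

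Over all kept leukocytes the ratios were different, and the share of macrophage-like cells differs between the libraries as well. Cd163 stood at 26.0 CPM in all kept cells labelled treated and 27.4 CPM in those labelled control, and Lyve1 at 43.4 CPM labelled treated and 43.1 CPM labelled control, with log2 ratios of -0.08 and 0.01. Folr2 was at 103 CPM in all kept cells labelled treated against 67.2 CPM in those labelled control (log2 ratio 0.62, 0.57 to 0.67).

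The macrophage-like cells were clustered again into 11 sub-clusters, of which 8 had at least 50 cells in each library. Sub-cluster 1, resident-like, held 26.4% of macrophage-like cells labelled treated and 33.4% of those labelled control, and 59.5% of all Cd163 UMIs of the class. Sub-cluster 2, led by the immediate early and heat shock genes Jun and Hspa1b, held 17.1% and 15.3%. The resident marker list matched it best, with 10 markers detected, but 0 were among its top 10 genes and it was left unnamed. Sub-cluster 3 was inflammatory-like (Ccl3, Ccl4), sub-cluster 4 foamy-like (Spp1, Gpnmb, Cd9), and sub-clusters 5 and 7 recruited-like, led by Ly6c2 and by Ear2. Sub-cluster 6 was shallow, at a median of 2361 UMIs labelled treated and 1936 labelled control, and sub-cluster 8 was led by T cell genes; neither was named. Sub-cluster 5 made up 11.7% of macrophage-like cells labelled treated against 6.89% of those labelled control, and sub-cluster 6 made up 8.96% against 4.21%.

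**Figure D2:**
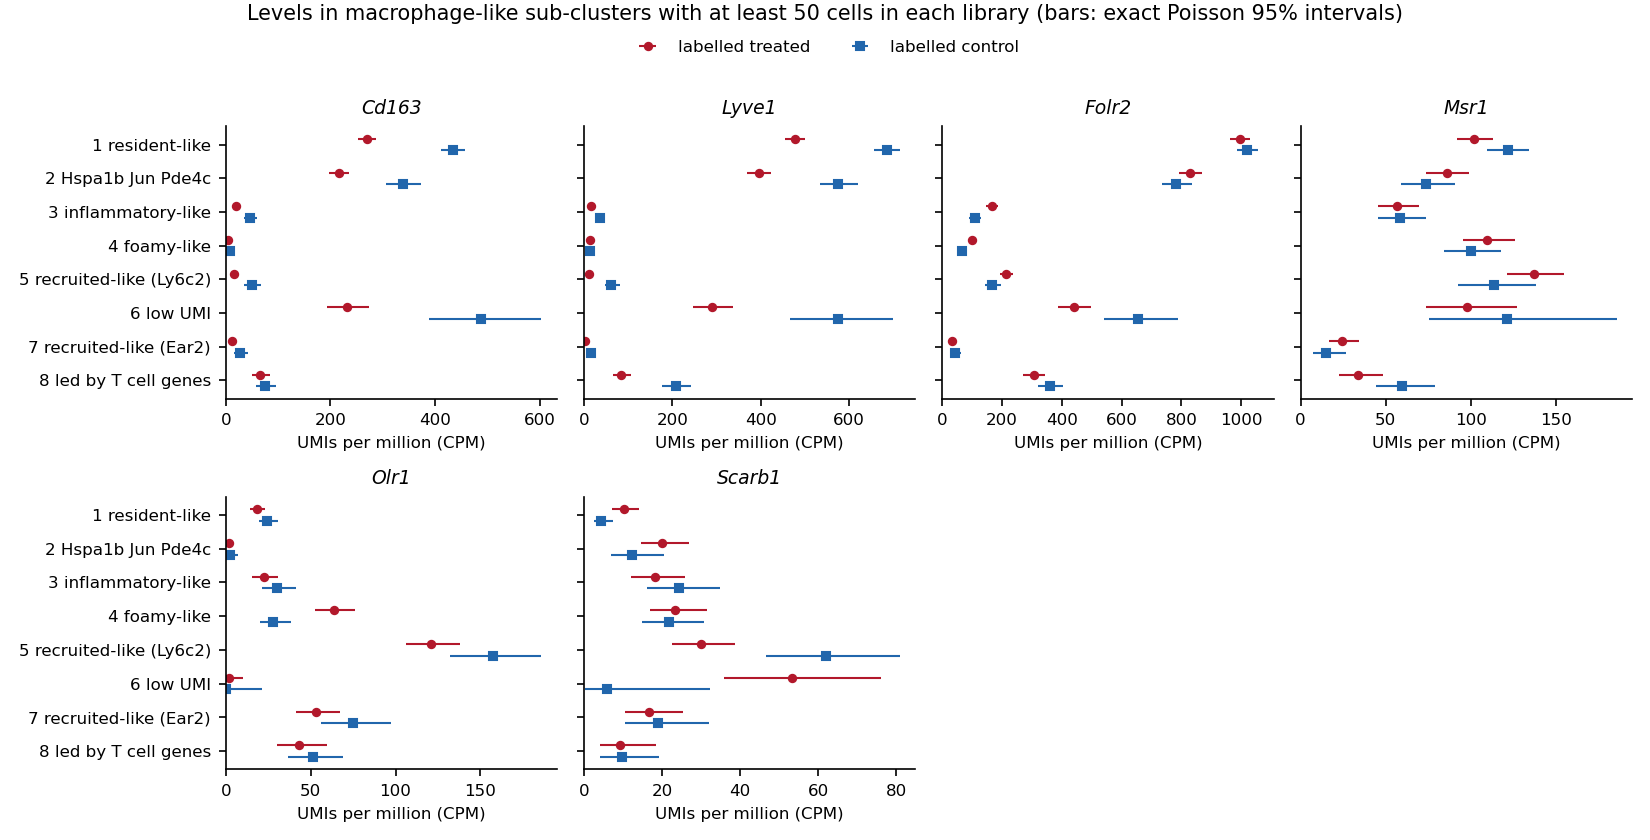
Levels of 6 of the genes in the 8 macrophage-like sub-clusters with at least 50 cells per library, in CPM with exact Poisson 95% intervals (red circles labelled treated, blue squares labelled control). Cd163, Lyve1 and Folr2 peak in sub-clusters 1, 2 and 6, and Olr1 is highest in the Ly6c2-led sub-cluster 5.

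Cd163 was compared within each sub-cluster as well. In resident-like sub-cluster 1 it was 270 CPM labelled treated and 434 CPM labelled control, a log2 ratio of -0.69 (-0.81 to -0.57), and the thinned share of cells with a UMI was 33.9% against 46.6%. The summed monocyte markers also differed in sub-cluster 1, at 829 CPM labelled treated and 493 CPM labelled control, and their part in the Cd163 difference was not tested. In sub-cluster 2 the levels were 216 CPM labelled treated and 338 CPM labelled control (-0.65, -0.85 to -0.46). The interval lay below 0 in 6 of the 8 sub-clusters and above 0 in none; the 2 others were foamy-like sub-cluster 4, with 9 UMIs labelled treated and 13 labelled control, and sub-cluster 8. In sub-cluster 1 Cd163 was the only one of 5 members measured that was over 1.5-fold lower, a size reached by 1.77% of all genes there, and none was over 1.5-fold higher, against 4.41% of all genes. With the mix of sub-clusters held the same for both libraries, the class ratio of Cd163 was -0.72.

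Lyve1 was lower in the library labelled treated in 7 of the 8 sub-clusters, by the interval of the ratio, and higher in none. The levels in sub-cluster 1 were 477 CPM labelled treated and 684 CPM labelled control, a log2 ratio of -0.52 (-0.61 to -0.43), and those in sub-cluster 2 were 395 and 575 CPM (-0.54, -0.69 to -0.39). The widest gap among sub-clusters with at least 20 UMIs was in Ly6c2-led sub-cluster 5, with 22 UMIs or 11.5 CPM labelled treated against 54 UMIs or 62.0 CPM labelled control (-2.43, -3.21 to -1.69). These are few cells: a single cell gave 40.9% of the UMIs labelled treated and another 20.4% of those labelled control. Foamy-like sub-cluster 4 was the exception, at 12.5 CPM labelled treated and 12.6 CPM labelled control. With the mix so held the class ratio of Lyve1 was -0.59.

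Folr2 kept its level in the 2 sub-clusters where it was highest and stood higher in 3 where it was low. It was at 995 CPM labelled treated and 1021 CPM labelled control in sub-cluster 1 (log2 ratio -0.04, -0.11 to 0.03) and at 829 and 783 CPM in sub-cluster 2 (0.08, -0.03 to 0.20). In inflammatory-like sub-cluster 3 it was 165 CPM labelled treated against 109 CPM labelled control (0.60, 0.30 to 0.92), in foamy-like sub-cluster 4 100.6 against 65.9 CPM (0.61, 0.24 to 0.98), and in sub-cluster 5 214 against 168 CPM (0.36, 0.08 to 0.64). Folr2 was over 1.5-fold higher in sub-cluster 3, where 6.44% of all genes were and where Cd163 was over 1.5-fold lower, as were 2.63% of all genes. It was also over 1.5-fold higher in sub-cluster 4, with 5.04% of all genes. Only shallow sub-cluster 6 had a ratio whose interval lay below 0, at 439 CPM labelled treated and 655 CPM labelled control (-0.58, -0.90 to -0.24).

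The cycling-like sub-cluster 9, with 32 cells labelled treated and 40 labelled control, went the other way for Cd163 and Lyve1. Cd163 had 27 UMIs there in the library labelled treated, 15 of them in 1 cell, against 8 UMIs in the library labelled control. Lyve1 had 48 UMIs labelled treated, 22 of them in 1 cell, against 16 UMIs labelled control. Both rest on few cells, and the sub-cluster is below the 50 cells set for a ratio.

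**Figure D3:**
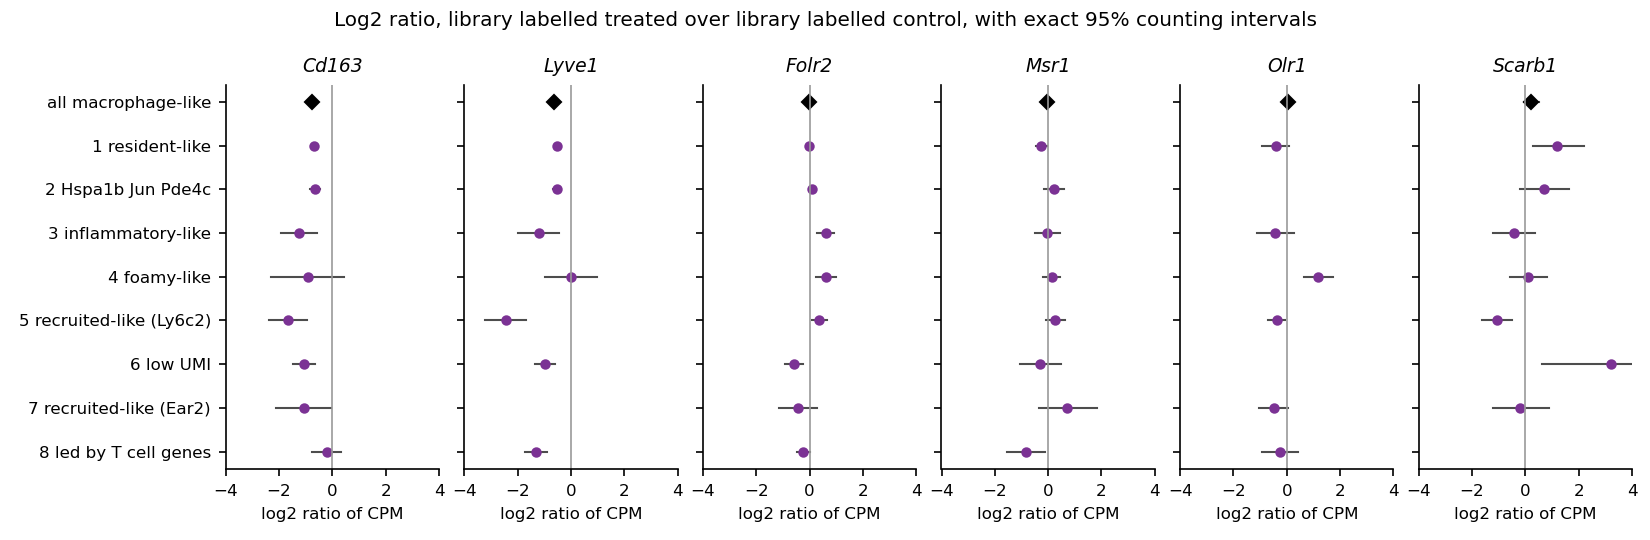
Log2 ratio of CPM, library labelled treated over library labelled control, for 6 genes in all macrophage-like cells (black diamonds) and in the 8 sub-clusters with at least 50 cells per library (purple circles), with exact conditional binomial 95% intervals drawn to the axis limits of -4 and 4. Among these, ratios from under 20 UMIs over both libraries, or with a library at 0, are not drawn; Cd163 and Lyve1 lie at or left of 0 in every row shown while Folr2 lies on both sides, and the smaller cycling-like sub-cluster 9, where both were above 0, is not plotted.

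The same contrast was visible cell by cell when Lyve1, Folr2 and Cd163 were read together after thinning to 2000 UMIs. All 3 genes were seen in 7.80% of macrophage-like cells labelled treated (151 of 1936) and in 14.5% of those labelled control (211 of 1456). None of the 3 was seen in 51.0% labelled treated and 47.3% labelled control. In resident-like sub-cluster 1 all 3 were seen in 18.1% of cells labelled treated and 29.5% of cells labelled control, 2 of the 3 in 40.7% and 37.6%, and none in 13.2% and 11.2%. The resident-like cells of the library labelled treated thus carried fewer complete sets, and the share with no member of the set was nearly the same. T, NK or ILC-like cells gave 0 cells with 2 or more of the genes in either library, and 0.826% labelled treated and 1.17% labelled control with 1.

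**Figure D4:**
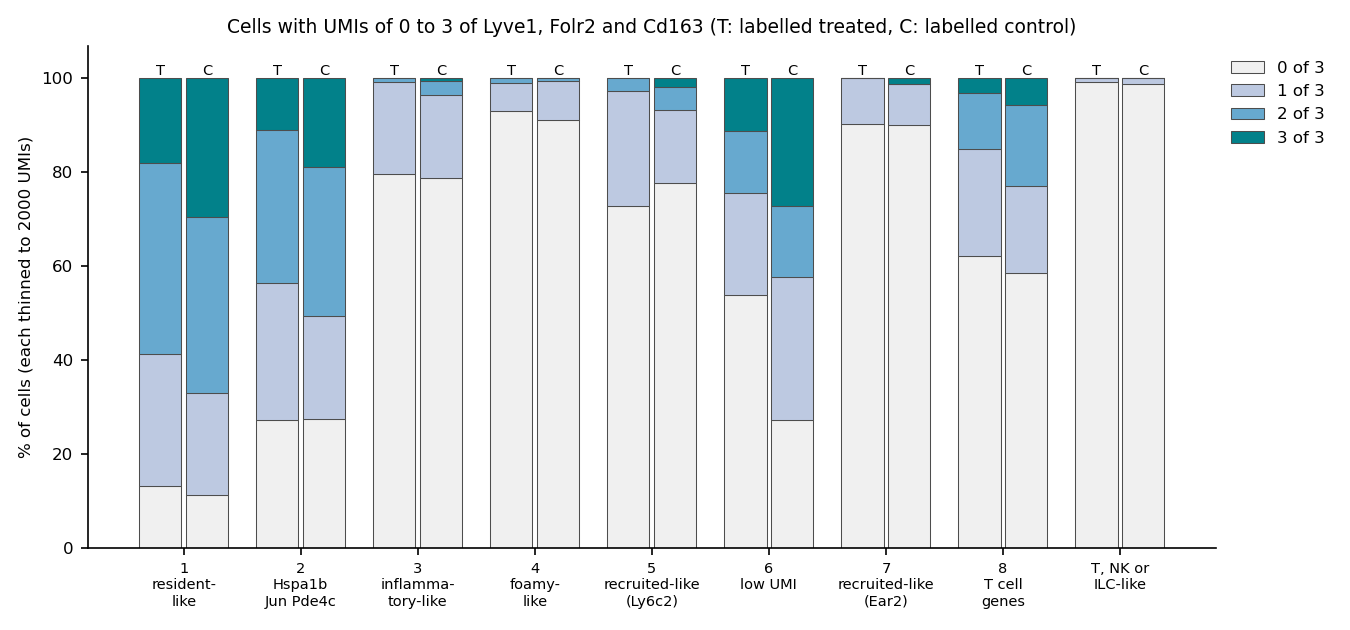
Percent of cells, each thinned to 2000 UMIs, with a UMI of 0, 1, 2 or 3 of the genes Lyve1, Folr2 and Cd163 in 8 macrophage-like sub-clusters and in T, NK or ILC-like cells (T, library labelled treated; C, library labelled control). In sub-cluster 1 the share with all 3 is 18.1% labelled treated and 29.5% labelled control.

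The members met in the same macrophage-like cells, thinned to 2000 UMIs, to different degrees. Cd163 and Lyve1 were seen together 2.27 times as often as their separate shares would give labelled treated and 1.998 times labelled control, and Lyve1 with Folr2 1.97 and 1.92 times. Within sub-cluster 1 these figures were near 1, at 1.18 labelled treated and 1.16 labelled control for Cd163 with Lyve1. Olr1 was seen with Lyve1 less often than its share would give, at 0.30 times labelled treated (7 cells) and 0.57 times labelled control (11 cells). Within sub-cluster 1 that pair stood at 0.89 and 1.13 times, from 6 and 9 cells. These counts describe cells of 1 library each and carry no test.

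Msr1, the class A receptor for modified low-density lipoprotein, did not part between the libraries in macrophage-like cells. Its level was 85.8 CPM (81.2 to 90.7) labelled treated and 87.4 CPM (81.9 to 93.2) labelled control, a log2 ratio of -0.03 (-0.15 to 0.10). Resident-like sub-cluster 1 was slightly lower, at 102 CPM labelled treated and 122 CPM labelled control (-0.25, -0.46 to -0.04), and sub-cluster 8, led by T cell genes, was lower too, at 33.8 against 59.7 CPM. The highest sub-cluster labelled treated was Ly6c2-led sub-cluster 5 at 137 CPM, and labelled control sub-clusters 1 and 6, both at 122 CPM. Ear2-led sub-cluster 7 was lowest, at 24.3 CPM labelled treated and 14.97 CPM labelled control.

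In monocyte-like cells Msr1 was higher in the library labelled treated. It had 2135 UMIs there, 174 CPM (166 to 181), against 581 UMIs, 126 CPM (116 to 137), labelled control, a log2 ratio of 0.46 (0.32 to 0.59). A UMI was seen in 23.7% (21.7 to 25.8) of thinned monocyte-like cells labelled treated and in 15.9% (13.1 to 19.0) labelled control. The gap lay in the classical monocyte cluster led by Vcan, Chil3 and F10, at 201 CPM labelled treated and 149 CPM labelled control; in the cluster led by Ace and Treml4, which mark patrolling monocytes, the levels were 31.8 and 40.6 CPM (log2 ratio -0.35, -0.95 to 0.26). None of the 3 members measured in monocyte-like cells was over 1.5-fold higher or lower, while 1.06% of all genes were higher and 2.21% lower. Monocyte-like cells thus stood above macrophage-like cells for Msr1 in both libraries, with intervals that do not meet, and the few serous cavity macrophage-like cells above both, at 279 CPM (221 to 346) labelled treated and 257 CPM (190 to 340) labelled control.

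Olr1, the receptor for oxidised low-density lipoprotein, was higher in monocyte-like and neutrophil-like cells than in macrophage-like cells of both libraries. Macrophage-like cells had 40.2 CPM (37.0 to 43.6) labelled treated and 39.2 CPM (35.5 to 43.2) labelled control. Monocyte-like cells had 186 CPM (178 to 193) labelled treated and 192 CPM (180 to 205) labelled control. Within them, the cluster led by Ace and Treml4 reached 398 CPM (371 to 427) labelled treated and 431 CPM (390 to 474) labelled control, and the classical cluster 144 and 129 CPM. Serous cavity macrophage-like cells were the highest class, at 1032 CPM (918 to 1155) labelled treated and 825 CPM (701 to 965) labelled control, and mast cell or basophil-like cells had 267 CPM (209 to 336) and 248 CPM (174 to 341), above monocyte-like cells labelled treated but not beyond counting error labelled control.

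Summed as 1 class, neutrophil-like cells carried more Olr1 in the library labelled treated. Their level was 153 CPM (144 to 162) labelled treated against 115 CPM (106 to 125) labelled control, a log2 ratio of 0.40 (0.26 to 0.55), which is under 1.5-fold; 5.06% of all genes measured in these cells were over 1.5-fold higher and 8.61% lower. Olr1 was concentrated in the neutrophil cluster led by Hcar2, Acod1 and Il1f9, at 335 CPM in 1111 cells labelled treated and 288 CPM in 601 cells labelled control (0.22, 0.04 to 0.40). The neutrophil cluster led by Retnlg, Mmp8 and Ly6g had 102 CPM labelled treated and 90.01 CPM labelled control (0.17, -0.16 to 0.51). That led by Ltf, Ngp and Camp had 73.4 and 65.7 CPM (0.16, -0.30 to 0.63). The class also took in granulocyte precursors. Their cluster led by Elane, Prtn3 and Mpo had 13.7 CPM labelled treated and 20.7 CPM labelled control, and that led by Camp, Ngp and Fcnb 72.1 and 57.5 CPM. The part of this mix in the class ratio was not tested. Neutrophil-like cells are shallow, and thinning to 2000 UMIs left out 970 of 2399 cells labelled treated and 407 of 1317 labelled control; in the rest Olr1 was seen in 21.0% (18.9 to 23.2) and 16.5% (14.1 to 19.1).

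Inside the macrophage-like class Olr1 was unevenly spread. Ly6c2-led sub-cluster 5 was highest, at 121 CPM labelled treated and 157 CPM labelled control (log2 ratio -0.38, -0.69 to -0.06). Shallow sub-cluster 6 was lowest, with 1 UMI labelled treated and 0 labelled control, and sub-cluster 2 was also low, at 1.87 and 2.48 CPM. Foamy-like sub-cluster 4 held 63.6 CPM labelled treated against 28.0 CPM labelled control (1.18, 0.65 to 1.74), from 117 and 40 UMIs. With Folr2, Olr1 was one of 2 members of 4 over 1.5-fold higher in sub-cluster 4, as were 5.04% of all genes. Cd5l, with 5 UMIs labelled treated and 65 labelled control, was over 1.5-fold lower, as were 4.64% of all genes. Of those 65 UMIs, 1 cell held 43 and another 15, so the Cd5l ratio rests on 2 cells. Foamy-like cells of the library labelled treated thus had more Olr1, and Ly6c2-led cells less, and the difference between these 2 ratios was not tested.

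Scarb1, the receptor for high-density lipoprotein, was low in macrophages and spread over monocytes and dendritic cells. Macrophage-like cells had 19.8 CPM (17.6 to 22.2) labelled treated and 16.9 CPM (14.6 to 19.6) labelled control, a log2 ratio of 0.22 (-0.05 to 0.50). Monocyte-like cells had 50.8 CPM (46.9 to 55.0) labelled treated and 59.6 CPM (52.8 to 67.1) labelled control (-0.23, -0.44 to -0.02), and cDC1-like cells 46.3 CPM (38.5 to 55.2) and 55.2 CPM (45.3 to 66.6). Fibroblast-like cells had 44.2 CPM (29.1 to 64.3) labelled treated and 31.3 CPM (20.5 to 45.9) labelled control. Their level rests in large part on single cells, as 1 cell held 14 of the 27 UMIs labelled treated and another 9 of the 26 labelled control. Those 2 cells also carried 10 and 8 UMIs of the endothelial gene Cdh5. The intervals of these 3 classes overlap in the library labelled treated; in the library labelled control fibroblast-like cells lay below monocyte-like cells, and the interval of cDC1-like cells met both others. Scarb1 had 63.6 CPM labelled treated and 63.4 CPM labelled control in the patrolling cluster, the same level in both.

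Small Scarb1 counts moved in both directions between macrophage states. In resident-like sub-cluster 1 there were 37 UMIs or 10.3 CPM labelled treated against 14 UMIs or 4.45 CPM labelled control (log2 ratio 1.20, 0.28 to 2.21). In Ly6c2-led sub-cluster 5 there were 57 UMIs or 29.9 CPM labelled treated against 54 UMIs or 62.0 CPM labelled control (-1.05, -1.62 to -0.49). In that sub-cluster Scarb1 and Lyve1 were the 2 members over 1.5-fold lower of 5 measured, against 3.54% of all genes, and none was over 1.5-fold higher, against 10.3% of all genes. No macrophage-like cell labelled treated held more than 3 Scarb1 UMIs, and in the library labelled control 1 cell held 14.

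Cd5l was a gene of the serous cavity macrophage-like cells in both libraries. It was seen in 18 of 20 such cells labelled treated and in 14 of 14 labelled control, at 1242 CPM (1117 to 1377) and 946 CPM (813 to 1095). Macrophage-like cells had 294 UMIs or 20.04 CPM labelled treated and 109 UMIs or 10.2 CPM labelled control, a log2 ratio of 0.97 (0.65 to 1.31). Most of these counts came from few cells: 1 cell held 162 of the 294 UMIs labelled treated and 1 cell held 43 of the 109 labelled control. Without those 2 cells the log2 ratio was 0.54. Without sub-cluster 6, which held 184 UMIs labelled treated and 1 labelled control, it was -0.40. That setting kept the control-labelled cells with 43 and 15 UMIs. A UMI was seen in 63 of 2153 macrophage-like cells labelled treated and 35 of 1567 labelled control. The thinned share was 1.19% labelled treated and 1.37% labelled control.

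Marco, the scavenger receptor for bacteria and particles, was at or near 0 in nearly every macrophage-like cell. It had 149 UMIs in 3 of 2153 macrophage-like cells labelled treated and 1 UMI in 1 of 1567 labelled control, and 146 of the 149 lay in a single cell. In resident-like sub-cluster 1 it had 0 UMIs in both libraries, in 569 cells labelled treated and 523 labelled control. Serous cavity macrophage-like cells had 160 UMIs, 550 CPM (468 to 643), labelled treated and 18 UMIs, 94.6 CPM (56.1 to 149), labelled control. Marco was seen in 6 of the 20 cells labelled treated and in 6 of the 14 labelled control, and 3 cells gave 94.4% of the UMIs labelled treated, so the gap is one of a few cells with many UMIs and not of more positive cells.

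The single cell with most Marco was also the one with most Cd5l. It came from the library labelled treated, had 12531 UMIs and 3486 genes, and was placed in shallow sub-cluster 6. It carried 146 UMIs of Marco, 162 of Cd5l, 252 of Saa3, 38 of Vsig4, 17 of Timd4, 13 of Lyve1 and 84 of C1qa. Of the genes that lead the serous cavity macrophage-like cluster, Saa3 was thus abundant in it, while Alox15 had 3 UMIs and Prg4 1. The control-labelled cell with most Cd5l was of a different make: it lay in foamy-like sub-cluster 4, with 43 UMIs of Cd5l, 50 of C1qa, 2 of Spic and 0 of Timd4, Vsig4 and Saa3.

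**Figure D5:**
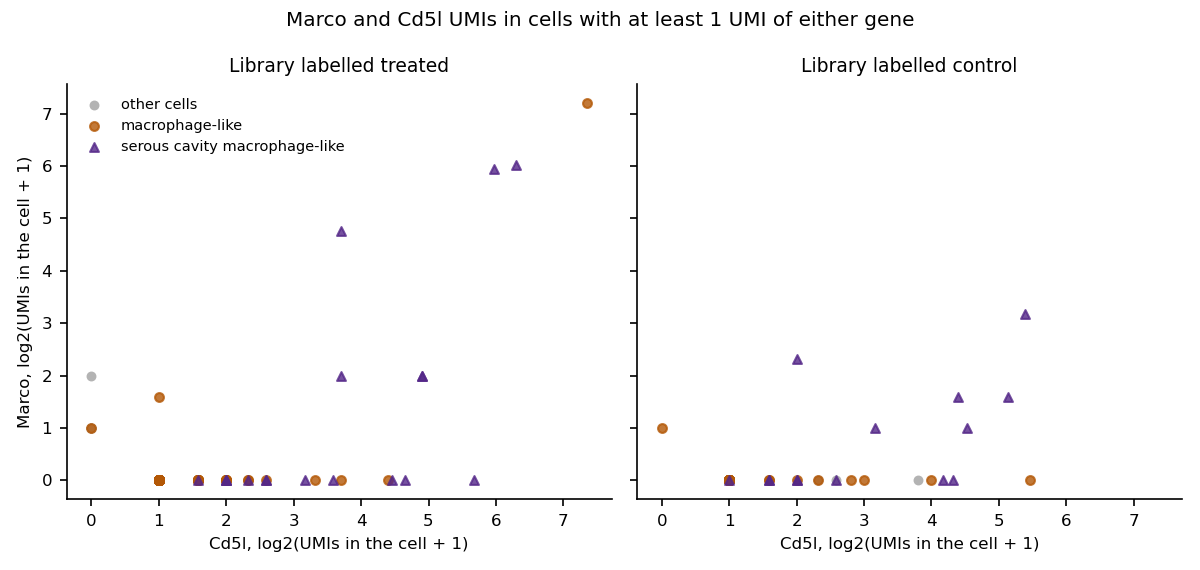
Marco (vertical) against Cd5l (horizontal) as log2 of UMIs in the cell plus 1, for cells with at least 1 UMI of either gene, in the library labelled treated (left) and the library labelled control (right); purple triangles are serous cavity macrophage-like, orange circles macrophage-like and grey circles other cells. One macrophage-like cell labelled treated stands at the top right with 146 Marco and 162 Cd5l UMIs, and most other macrophage-like cells lie on the horizontal axis.

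Genes with the most similar pattern were sought over 39 sums of cells by class or sub-cluster and library, among 11338 genes, by Pearson's r of log2(CPM + 1). A sum needed at least 50 cells, so the serous cavity macrophage-like cells, 20 labelled treated and 14 labelled control, were not among the points. The points share libraries and the sub-clusters are parts of 1 class, so r is a description. Closest to Cd163 were Lyve1 (r = 0.964), Etv1 (0.961) and C6 (0.959), and closest to Lyve1 were C6 (0.974), Cd163 and Etv1 (0.957). Folr2 was instead closest to Pf4, a platelet factor gene also made by resident macrophages (0.974), then Ccdc152 (0.9501) and the chemokine gene Ccl8 (0.948). Msr1 lay closest to Cmklr1 (0.946), Ctsb (0.945) and Adgre1 (0.929), the last being the gene of the macrophage marker F4/80. Olr1 was closest to Morrbid (0.861), Macrod2 (0.820) and Slc7a11 (0.819), and Scarb1 to Trappc1 (0.801), Myd88 (0.753) and Acaa1a (0.744). Marco lay closest to Alox15 (0.825), Cmss1 (0.714) and Cd5l (0.643). Its level among the sub-clusters comes almost wholly from the 1 cell placed in sub-cluster 6, of which Cmss1 is the leading gene, so this likeness depends on where that cell was placed. Cd5l lay closest to Mertk (0.794), Lilra5 (0.789) and Mfsd11 (0.784).

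The other genes of each receptor's pathway were read in macrophage-like cells beside all 12958 genes with at least 20 UMIs there, of which 5.05% were over 1.5-fold higher and 6.64% over 1.5-fold lower. Of 24 other genes of resident macrophages, 16 (66.7%) had ratios below 0 and 8 above, with a median log2 ratio of -0.15. Among all genes 46.0% were below 0. Over 1.5-fold lower were 2 (8.33%) and over 1.5-fold higher 1 (4.17%). The 24 genes all reached 50 UMIs and 20 CPM in one library, and of all genes that did, 1.53% were over 1.5-fold lower and 1.36% higher. Timd4, a phosphatidylserine receptor, had 19.9 CPM labelled treated and 31.7 CPM labelled control (-0.67, -0.90 to -0.44), and the lectin gene Cd209b 25.2 and 40.3 CPM (-0.68, -0.89 to -0.48). Vsig4, a complement receptor, was at 45.0 CPM labelled treated and 67.2 CPM labelled control (-0.58, -0.73 to -0.42). Ccl24, an eotaxin chemokine, went the other way, at 208 CPM labelled treated and 97.4 CPM labelled control (1.10, 0.99 to 1.20). Timd4 and Cd209b were the 2 past 1.5-fold lower and Vsig4 was not past it, and Pf4 (1336 and 1303 CPM labelled treated and control) and the mannose receptor gene Mrc1 (1014 and 1018 CPM) differed by little.

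Genes of haem and iron, folate and hyaluronan handling were read the same way. Of 15 measured haem and iron genes, none was past 1.5-fold and the median log2 ratio was 0.01; Hmox1, which breaks down haem, was at 964 CPM labelled treated and 955 CPM labelled control. The haem transporter of the lysosome, Slc48a1, had 44.0 CPM labelled treated and 30.8 CPM labelled control (0.51, 0.32 to 0.71), and Slc11a2, an iron transporter, 102 and 128 CPM (-0.34). Of 13 measured folate genes none was past 1.5-fold (median 0.06). Of 10 measured hyaluronan genes, 2 were past 1.5-fold in each direction, or 20% each (median -0.18). Among them was Vcan, a matrix proteoglycan gene also counted here as a monocyte marker, at 39.6 CPM labelled treated and 25.5 CPM labelled control. Another was Tnfaip6, whose product binds hyaluronan, at 3.48 CPM labelled treated and 5.52 CPM labelled control.

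Of 13 measured cholesterol genes, 10 had ratios above 0 and 3 below, and 2 were over 1.5-fold higher. Their median log2 ratio was 0.12, and -0.011 among cells nearly free of lymphocyte and neutrophil markers. Those were Nr1h3, the gene of the sterol-sensing receptor LXR alpha, at 20.8 CPM labelled treated and 11.2 CPM labelled control (0.89, 0.58 to 1.21), and Abcg1, a cholesterol exporter, at 145 and 82.4 CPM (0.81, 0.70 to 0.93). Abca1, another exporter, was at 803 CPM labelled treated and 882 CPM labelled control (-0.14, -0.18 to -0.10). Of 12 other scavenger receptors measured, Scarf1 was over 1.5-fold higher, at 11.1 CPM labelled treated and 6.93 CPM labelled control, while Cd36, a fatty acid and oxidised lipoprotein receptor, had 386 and 476 CPM (-0.30, -0.36 to -0.25). Of 15 measured regulators of macrophage identity, Nr1h3 alone was past 1.5-fold (median -0.05); Maf was at 377 CPM labelled treated and 307 CPM labelled control (0.29, 0.23 to 0.36).

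Markers of other cells moved between the libraries inside the macrophage-like class. Summed over 11 genes, monocyte markers stood at 1228 CPM labelled treated and 935 CPM labelled control, and 12 neutrophil markers at 693 and 409 CPM. The 9 B cell markers stood at 63.8 CPM labelled treated and 203 CPM labelled control, and the 12 T cell markers at 186 and 199 CPM. Their part in the Cd163 and Lyve1 differences was not tested. In 366 macrophage-like cells labelled treated and 224 labelled control, the T cell, B cell, plasma cell and neutrophil markers summed to 1 UMI or less. Among those cells the log2 ratios were -0.62 for Cd163 and -1.02 for Lyve1. The cut was on raw UMIs, which can favour shallow cells, and it left out most of the 2153 and 1567 cells. The depth of the cells kept was not compared.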

How the data were processed

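The deposited files hold raw UMI counts per gene and cell barcode for each library, per the file headers and from their whole-number values. Per the labels' protocols the libraries were made with a 10x Genomics 3′ kit of version 2. The file headers name Cell Ranger 7.2.0, while the submitters' processing notes name Cell Ranger 3.1.0, Seurat 4.4.0 and the build mm10, and it is not known which version made the counts. The libraries labelled treated and control held 13155 and 12516 barcodes with 77856529 and 88567528 UMIs. Barcodes with at least 500 genes and at most 15% mitochondrial UMIs were kept (12466 and 12038). Scrublet then removed 593 and 533 called doublets, 4.51% and 4.26% of barcodes where 10.5% and 10.0% would be expected from loading. Both libraries share 45 barcode sequences, of which 40 and 42 were kept.

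Cells were clustered with Python 3.11.15 and scanpy 1.11.5 (2000 variable genes without the 8 members, 30 components, 15 neighbours, Leiden resolution 1, and 0.5 within macrophage-like cells). Clusters were named from marker lists by a rule set after the data were seen. It asked for at least 3 detected markers of the list and no more foreign than own markers among the top 10 genes. A macrophage-like sub-cluster also needed at least 1 own marker among those 10 genes. A cluster without one needed more detected markers and enough depth to be named. Other groupings of the cells could give other values. UMIs were summed per class and library and divided by the class total (CPM), with exact Poisson intervals, exact conditional binomial intervals for ratios and Clopper-Pearson intervals for shares (scipy 1.17.1), all at 95%. A library at 0 UMIs was set to a floor of 3. With 1 library per group no test was made. The ratio interval was checked only on counts simulated from the Poisson model it assumes. That check cannot show how the interval does where UMIs are clumped in single cells.

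All 8 members are named. From each pathway list the genes named are among the 4 with the largest absolute ratio, plus genes whose level is itself the point; for each member the 3 genes with the most similar pattern are named, among genes with at least 200 UMIs. The members and lists were chosen with earlier results of these data known. Alternatives were doublets kept, other filters and resolutions, monocyte-like cells included, one sub-cluster mix for both libraries, means over cells, the top cell left out, and other thinning depths, thresholds and count minimums. Chosen after seeing the data were 4 more: clusters 20 and 30 added, serous cavity macrophage-like cells added, shared barcodes left out, and sub-cluster 6 left out. Gene positions are from GENCODE vM21, which held 32158 of the 32285 gene identifiers.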

Additional observations from a re-analysis of the deposited data

Results flagged for a closer look

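In each of the following pairs the log2 ratio of a gene, library labelled treated over library labelled control, had an interval above 0 in one kind of cell and below 0 in the other. With 1 library per group none of these differences was tested. Cd163 had a ratio of 2.56 in cDC2-like cells, from 28 UMIs labelled treated and 2 labelled control, against -0.75 in macrophage-like cells, a difference of 3.31. Lyve1 differed by 4.15 between plasma cell-like cells (14 UMIs labelled treated, 10 labelled control) and T, NK or ILC-like cells (6 and 34 UMIs). Olr1 differed by 4.57 between plasma cell-like cells (23 UMIs labelled treated, 8 labelled control) and fibroblast-like cells (11 and 41 UMIs, 25 of the 41 in 1 cell). All of these counts outside macrophage-like cells are small.

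Scarb1 differed by 1.27 between T, NK or ILC-like cells, at 0.65, and neutrophil-like cells, at -0.62. Folr2 differed by 1.19 between foamy-like sub-cluster 4, at 0.61, and shallow sub-cluster 6, at -0.58. Olr1 differed by 1.56 between foamy-like sub-cluster 4, at 1.18, and Ly6c2-led sub-cluster 5, at -0.38. Scarb1 differed by 4.25 between sub-cluster 6 (30 UMIs labelled treated, 1 labelled control) and sub-cluster 5 (57 and 54 UMIs). Cd5l differed by 9.88 between sub-cluster 6 (184 UMIs labelled treated, 162 of them in 1 cell, against 1 labelled control) and sub-cluster 4 (5 UMIs labelled treated, 65 labelled control, 43 of these in 1 cell and 15 in another).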

How the results depend on the processing

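Cd163 and Lyve1 stayed below 0 in macrophage-like cells in 16 of 16 alternatives, at log2 ratios of -1.11 to -0.62 and of -1.02 to -0.59. The smaller ratios depended on who was counted. With monocyte-like cells included, the ratios were -1.11 for Cd163, -1.01 for Lyve1, -0.39 for Folr2, 0.34 for Msr1, 0.32 for Olr1 and 0.46 for Cd5l, and 0 members were over 1.5-fold higher. Among cells whose T cell, B cell, plasma cell and neutrophil markers summed to 1 UMI or less they were -0.62 for Cd163, -1.02 for Lyve1, -0.22 for Folr2, -0.51 for Olr1 and 2.56 for Cd5l, and the median of the cholesterol genes was -0.011, the opposite sign to its 0.12. The same mix of sub-clusters in both libraries gave 0.036 for Folr2 and -0.17 for Olr1. Means over cells gave -0.73 for Lyve1, -0.14 for Folr2, 4.18 for Marco, 0.26 for Olr1, 0.58 for Scarb1 and 0.44 for Cd5l, with 0 members over 1.5-fold higher. Olr1 was 0.25 with doublet calls kept and -0.31 at Leiden resolution 0.5. The cause of these shifts was not tested.

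Without the cell with most UMIs of the gene in each library, Cd5l was at 0.54 and 0 members were over 1.5-fold higher; Marco then had 3 UMIs labelled treated and 0 labelled control, and no ratio was formed. In alternatives chosen after seeing the data, Folr2 was -0.10 with clusters 20 and 30 added, and Marco 3.56 with serous cavity macrophage-like cells added. Without sub-cluster 6 Marco was 1.16 and Cd5l -0.40, the opposite sign, with 0 members over 1.5-fold higher. That sub-cluster held 184 Cd5l UMIs labelled treated and 1 labelled control, so leaving it out changed mainly the library labelled treated. At 2-fold, 0 members were lower and 0 higher, against 0.356% and 0.238% of all genes. With a minimum of 20 UMIs over both libraries, 2 members were over 1.5-fold higher, against 5.05% of all genes. These were Marco and Cd5l, both with most of their UMIs labelled treated in 1 cell. Under that minimum 2 members were over 1.5-fold lower, against 6.64% of all genes. Ratios of the share of macrophage-like cells with a UMI, labelled treated over labelled control, were 0.655 for Lyve1 and 2.22 for Scarb1 thinned to 1000 UMIs, 0.893 for Msr1 and 0.865 for Cd5l thinned to 2000, and 1.28 and 1.30 for Olr1 at 2000 and 1000. Over all settings the median of all genes stayed between 0.01 and 0.05. No paired analysis was possible because each group is 1 library.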
